A study of Macaca mulatta and Mus musculus and Rattus norvegicus with 12 samples.

Results

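10 genes of the blood vessel wall were followed in osteocyte-enriched bone of the calvaria (the flat bone of the skull vault) and the tibia of mouse, rat and rhesus macaque. They were RGS5, PDGFRB, CSPG4 and ACTA2, which mark mural cells, and PECAM1, CDH5, EMCN, VWF, KDR and TEK, which mark the endothelium. These 10 of 10536 tested gene symbols were selected on their measured calvaria and tibia values in these same libraries, so their site differences are given below as a description, with no test. A row carried the symbol of all 10 genes in mouse and in rat. In macaque 9 of the 10 had such a row and EMCN was absent; a row named LOC709580, which RefSeq assigns to EMCN, is reported in its place.

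Poly(A)+ RNA of 12 libraries was sequenced. Mouse gave 2 calvaria libraries (M4, M8) and 2 tibia libraries (M5, M7) from C57BL6 females aged 4 months, each library pooled from 3 animals. Rat gave 1 calvaria library (R1) and 1 tibia library (R3) from Wistar females aged 6 months, each pooled from 2 animals and without a replicate. Macaque gave 3 calvaria libraries (G1, G3, T1) and 3 tibia libraries (G2, G4, T2), each from 1 female; according to the methods the skull and tibia libraries of each species were pairs from the same animals, so the macaques were 3, but the labels do not say which libraries form a pair. The labels put the macaques at 4 to 6 months of age and the methods at the same figures in years. No group carried a treatment or a genetic change. Bone was freed of periosteum, scraped, digested briefly with collagenase and ground whole, the marrow of rodent tibias having been spun out beforehand. No described step was aimed at vessels inside the bone. Whether the vascular reads came from those vessels or from remaining marrow was not tested. In such bulk RNA, fewer cells of a type and less RNA per cell cannot be told apart.

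Capillaries and venules of bone consist of endothelial cells wrapped by pericytes, and arterioles carry smooth muscle instead. Endothelial cells release PDGF, which recruits pericytes through the receptor PDGFRB, and pericytes return angiopoietin to the endothelial receptor TEK, while KDR receives VEGF. In long bones the vessels of the metaphysis rich in EMCN and PECAM1 are known for lying beside bone-forming cells. RGS5 shortens signalling from G protein-coupled receptors and is a widely used pericyte marker.

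Reads assigned to genes ranged from 13934813 to 16826535 per mouse library, from 12233256 to 14255423 in rat and from 7951585 to 10342459 in macaque. Below, normalized CPM is a read count set against the library's reads on the tested genes alone (5452748 to 6824364 in macaque, 9399266 to 11440736 in mouse, 7937754 and 8671814 in rat), scaled by the trimmed mean of M-values (TMM) except in rat. It is therefore larger than a CPM over all gene reads would be. The calvaria libraries of mouse stood further apart from each other (Pearson r = 0.946 of log2 values over 9628 genes) than the tibia libraries (r = 0.989 over 9731 genes), and M4 and M8 are given separately wherever they disagree. The osteocyte marker genes SOST, DMP1, MEPE and PHEX were present but their summed normalized CPM was unequal between sites, at 1489 to 2661 in mouse calvaria and 11120 to 15128 in mouse tibia.

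RGS5, which accelerates GTP hydrolysis by G proteins in pericytes, had the widest site difference in macaque among the 9 members with enough reads for a fold change. Its reads in the calvaria libraries were 1753 in G1, 1779 in G3 and 1331 in T1, and in the tibia libraries 6525 in G2, 6470 in G4 and 4692 in T2. Every tibia library lay above every calvaria library. In normalized CPM the sites stood at 300.6 ± 52.8 in calvaria and 960.0 ± 239 in tibia (SD, n = 3), which is 3.19-fold more in tibia (log2 fold change of calvaria over tibia -1.68, standard error 0.210). With any 1 macaque library left out the log2 fold change stayed between -1.87 and -1.55.

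The rodent rows of RGS5 held fewer reads in each library, and levels are not compared between species. In mouse, 224 reads in M4 and 247 in M8 stood against 355 in M5 and 309 in M7, and the normalized CPM of 21.3 and 27.5 in calvaria lay just under the 29.5 and 31.1 in tibia. The sites did not overlap, yet the log2 fold change of -0.31 had a standard error of 0.244. The paper that reported these data lists RGS5 as past the same threshold in mouse, higher in tibia. Why that call was not repeated here was not tested. In rat, RGS5 had 8 reads in calvaria and 70 in tibia, a log2 ratio of -3.11 with 1 read added to each (95% interval -4.52 to -2.20, exact binomial, counting error only). RGS5 lies on mouse chromosome 1 (chr1:169655501-169695813, plus strand, GRCm38). The exons of its row summed to 1809 bases in mouse and 2384 in macaque but only 546 in rat, the same as the longest mouse coding sequence with its stop codon, so the rat row spans no more than a coding sequence would.

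PDGFRB, the PDGF receptor of mural cells, was among the more abundant members and its sites overlapped in mouse and in macaque. Macaque reads were 3360, 4078 and 2686 in calvaria (G1, G3 and T1, the order used from here on) and 5151, 5662 and 4219 in tibia (G2, G4 and T2). The highest calvaria library, G3, reached 783 normalized CPM and the lowest tibia library, T2, 616, so that the sites crossed even though their means differed by a log2 fold change of -0.38 (standard error 0.209). If the libraries are paired in label order, PDGFRB was higher in tibia in all 3 pairs (612 and 849, 783 and 979.7, 486 and 616 normalized CPM). So were RGS5, CSPG4, EMCN and VWF. With that assumed block PDGFRB too was past the threshold described below. The pairing is assumed and these values chose the members, so nothing is read from that call. In mouse the calvaria libraries disagreed, with 2570 reads in M4 and 837 in M8 against 1603 in M5 and 1251 in M7. The mouse log2 fold change was 0.38 with both libraries, 0.91 without M8 and -0.48 without M4, so its direction rested on which calvaria library was kept. Rat PDGFRB had 887 reads in calvaria and 1367 in tibia.

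CSPG4, the NG2 proteoglycan of pericytes, had fewer reads in calvaria than in tibia in all 3 species. Macaque had 34, 40 and 46 reads in calvaria and 77, 70 and 80 in tibia, which is sparse, and the sites did not overlap (log2 fold change -0.71, standard error 0.326). In mouse, 774 reads in M4 and 204 in M8 faced 1229 in M5 and 1195 in M7. Both mouse calvaria libraries lay below the tibia libraries, but M8 held 22.7 normalized CPM against 73.6 in M4, and the log2 fold change of -1.21 (standard error 0.539) moved to -2.29 without M4 and to -0.59 without M8. Rat had 88 reads in calvaria and 784 in tibia, a log2 ratio of -3.27 (95% interval -3.62 to -2.96), the widest ratio of the 10 members in rat. The mouse gene lies at chr9:56865033-56899870.

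ACTA2, the smooth muscle actin of arterioles and also of activated pericytes, showed no separation of the sites where replicates existed. Macaque reads were 1478, 1155 and 689 in calvaria and 1129, 1110 and 1249 in tibia. The tibia libraries were close together, at 182 to 192 normalized CPM, while calvaria ran from 125 to 269 and enclosed them (log2 fold change 0.14, standard error 0.224). Mouse had 915 reads in M4, 175 in M8, 913 in M5 and 634 in M7. Here M4 lay above both tibia libraries and M8 below them, and the log2 fold change of -0.39 had a standard error of 0.653. Rat had 61 reads in calvaria and 224 in tibia, at a log2 ratio of -1.99, just short of the threshold of 2 used for rat.

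PECAM1, an adhesion molecule of endothelial junctions that leukocytes and platelets also carry, was nearly level between the macaque sites. Its macaque reads were 2588, 2720 and 2073 in calvaria and 2760, 2908 and 2390 in tibia, and the log2 fold change was 0.07 (standard error 0.184). Mouse differed, with 337 reads in M4 and 366 in M8 against 866 in M5 and 681 in M7. The mouse libraries did not overlap, at 32.0 and 40.7 normalized CPM in calvaria and 72.1 and 68.5 in tibia, and the log2 fold change was -0.95 (standard error 0.217). Rat PECAM1 had 343 reads in calvaria and 601 in tibia. In macaque calvaria, the summed normalized CPM of platelet and megakaryocyte markers was 439 to 598 against 39.2 to 72.2 in tibia, and that of leukocyte markers 465 to 698 against 329 to 495. The part of blood cells in the PECAM1 values was not tested.

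CDH5, the cadherin of endothelial junctions, was almost unread in macaque. Its macaque row held 0, 5 and 1 reads in calvaria and 0, 0 and 1 in tibia, too few for a fold change at either site. In mouse it gave the widest site difference of the 10 members, with 175 reads in M4 and 97 in M8 against 594 in M5 and 412 in M7. Both calvaria libraries lay below both tibia libraries, at 16.6 and 10.8 normalized CPM against 49.4 and 41.4 (log2 fold change -1.72, standard error 0.299; between -2.07 and -1.45 with either calvaria library left out). Rat had 1 read in calvaria and 12 in tibia, a log2 ratio of -2.83 whose 95% interval ran from -9.13 to -0.96. The mouse gene lies at chr8:104101625-104144511.

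EMCN, a sialomucin of capillary and venous endothelium, had 528 reads in rat calvaria and 1334 in rat tibia (log2 ratio -1.46, 95% interval -1.61 to -1.32). Mouse reads were 779 in M4, 328 in M8, 922 in M5 and 811 in M7. M4 at 74.1 normalized CPM came close to M5 at 76.7, and M8 was lower at 36.5. The macaque row assigned to EMCN held 445, 300 and 223 reads in calvaria and 497, 403 and 379 in tibia, which overlapped (log2 fold change -0.21, standard error 0.246).

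VWF, the clotting factor stored by endothelial cells and made by megakaryocytes as well, was the only member with a higher CPM in rat calvaria than in rat tibia (728 and 503 reads, log2 ratio 0.40, 95% interval 0.24 to 0.57). Mouse reads were 372 in M4, 643 in M8, 527 in M5 and 360 in M7. M8 alone stood out, at 71.5 normalized CPM against 35.4 to 43.8 in the other mouse libraries, and without M8 the mouse log2 fold change went from 0.42 to -0.18. In macaque, 603, 428 and 605 reads in calvaria stood against 1008, 496 and 1352 in tibia (log2 fold change -0.58, standard error 0.250). The tibia library G4, at 85.8 normalized CPM, fell inside the calvaria range of 82.2 to 109.8, so the sites overlapped. Summed platelet and megakaryocyte markers ran the other way in macaque, as given above for PECAM1.

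KDR, the main VEGF receptor of endothelial cells, and TEK, the angiopoietin receptor, differed little between sites outside rat. KDR reads in macaque were 223, 180 and 194 in calvaria and 236, 252 and 311 in tibia (log2 fold change -0.21, standard error 0.202). Those of TEK were 691, 616 and 418 in calvaria and 742, 697 and 838 in tibia (log2 fold change -0.19, standard error 0.195). Both receptors overlapped between the macaque sites; for TEK the tibia libraries stood together at 121 to 122 normalized CPM and T1 alone was low, at 75.7. In mouse, KDR had 115 and 52 reads in calvaria (M4, M8) and 112 and 81 in tibia (M5, M7), and TEK had 281 and 176 against 353 and 311. The mouse sites overlapped for KDR and not for TEK (log2 fold change -0.39, standard error 0.257). Rat had 871 KDR reads in calvaria and 1378 in tibia, and 512 TEK reads in calvaria and 1033 in tibia.

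**Figure D1:**
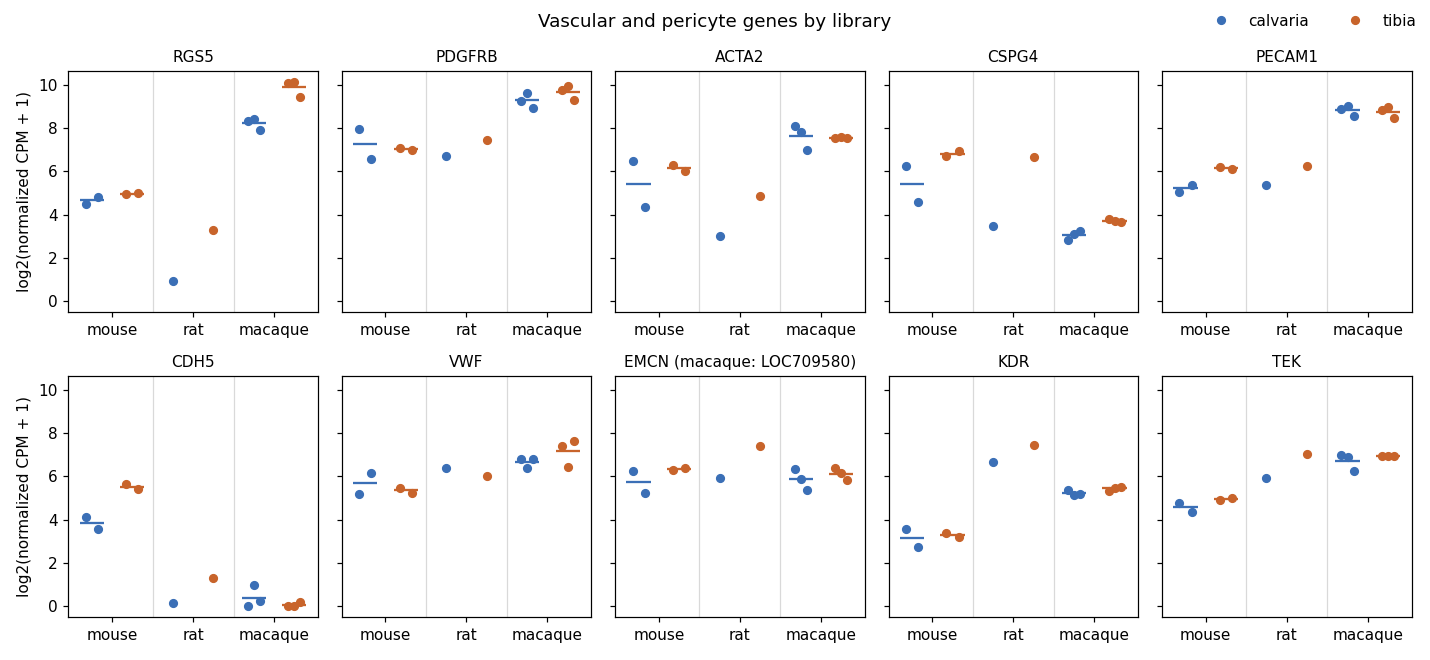
Each panel plots 1 gene; the vertical axis is log2 of the normalized CPM with 1 added, each point is a library (blue calvaria, orange tibia), and the short lines are means of the plotted values where a site had replicates. RGS5 in macaque shows the sites apart, with every tibia point above every calvaria point, while ACTA2 and PDGFRB in mouse show the M4 and M8 calvaria points spread around the tibia points.

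Over the 10 members, the mouse log2 fold change was negative for 8 and positive for 2, with a median of -0.39, beside a median of 0.04 over all tested genes. In rat, 9 of 10 were lower in calvaria and the median log2 ratio was -1.30, beside -0.20 over all tested genes; of the rat genes above 1 CPM, 63.4% were lower in calvaria. Among the 9 macaque members with enough reads for a fold change, 7 were lower in calvaria and 2 higher, and the median was -0.21, beside 0.01 over all tested genes. Nothing is read from these figures, since they come from the values that chose the members.

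The threshold in mouse and macaque was a fold change above 1.1 with a false discovery rate (edgeR) below 0.2, and in rat a log2 ratio beyond 2 in size. In mouse 0 of the 10 members were past it, where 0.304% of all tested genes were. In macaque 3 of 10 were, RGS5, CSPG4 and VWF, all higher in tibia, against a background of 26.7% in either direction, 12.6% higher in tibia and 14.1% higher in calvaria. CSPG4 was no longer past it without G1, G3, T1, G2 or G4, nor VWF without G1, G3, G2 or T2, and since these values chose the members the count supports nothing. In rat 3 of 10 were past it, RGS5, CSPG4 and CDH5, all higher in tibia, against 7.16% in either direction and 6.39% higher in tibia. Calvaria and tibia libraries were fully apart in normalized CPM for 6 members in mouse (RGS5, CSPG4, PECAM1, CDH5, EMCN and TEK), against 40.0% of all tested genes, and for RGS5 and CSPG4 in macaque, against 30.4%.

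**Figure D2:**
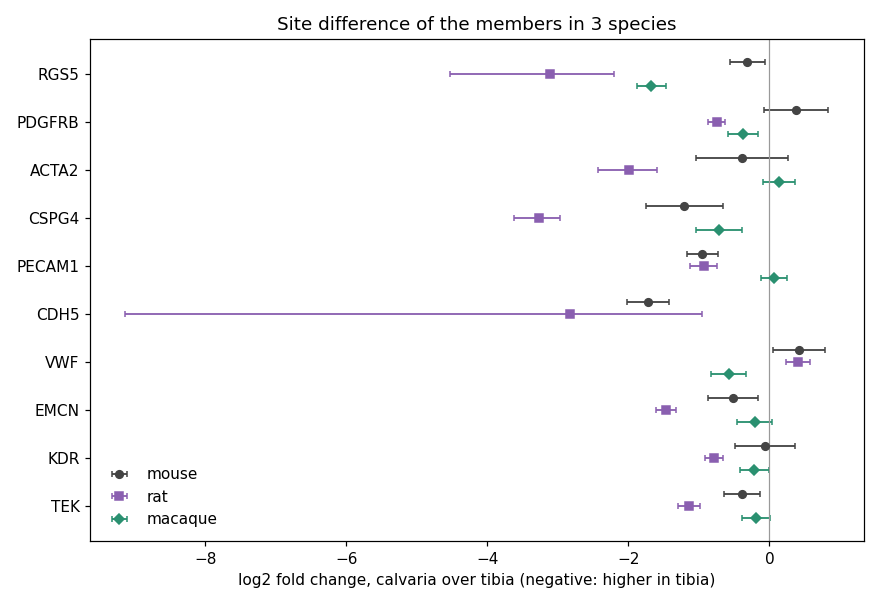
The horizontal axis is the log2 fold change of calvaria over tibia for each gene; bars are standard errors from edgeR in mouse (2 libraries per site) and macaque (3 per site) and 95% counting intervals in rat (1 per site), and CDH5 of macaque is left out for its few reads. Rat points lie furthest to the left of the 3 species except for PECAM1 and for VWF, which is at 0.40, and the macaque point of RGS5 at -1.68 stands apart from the other macaque points, which run from -0.71 to 0.14.

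Levels were compared between members by dividing normalized CPM by the exon length in kilobases (RPKM). In macaque tibia RGS5 led the members at 403 ± 100.4 RPKM (SD, n = 3), above PDGFRB at 143 ± 32.4 and PECAM1 at 134 ± 24.3, which overlapped each other. In macaque calvaria PECAM1 (140 ± 22.9), RGS5 (126 ± 22.1) and PDGFRB (110 ± 26.2) overlapped in that order. ACTA2 and EMCN followed at both sites, then TEK, VWF, KDR and CSPG4, and CDH5 was last. RGS5 stood above 97.6% of tested genes in macaque in its mean RPKM over all libraries, above 64.3% in mouse and above 51.1% in rat.

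In rodents EMCN led instead, at 37.4 ± 18.0 RPKM in the calvaria of mouse and 53.6 ± 2.32 in its tibia (SD, n = 2), and at 40.5 in rat calvaria and 112 in rat tibia. RGS5 came after EMCN, ACTA2 and PDGFRB in mouse at both sites (13.5 ± 2.41 and 16.8 ± 0.603 RPKM), where the mouse tibia order of EMCN, ACTA2, PDGFRB, RGS5, PECAM1, CSPG4, CDH5, TEK, VWF and KDR had no neighbours that overlapped. In mouse calvaria the ranges of EMCN, PDGFRB, ACTA2 and RGS5 each overlapped the next. KDR was last in mouse (1.53 and 1.60 RPKM) but near the middle in rat (17.1 and 29.5 RPKM). Exon lengths and annotation differ between the species, so RPKM of a gene in 1 species and in another are set side by side without a comparison.

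**Figure D3:**
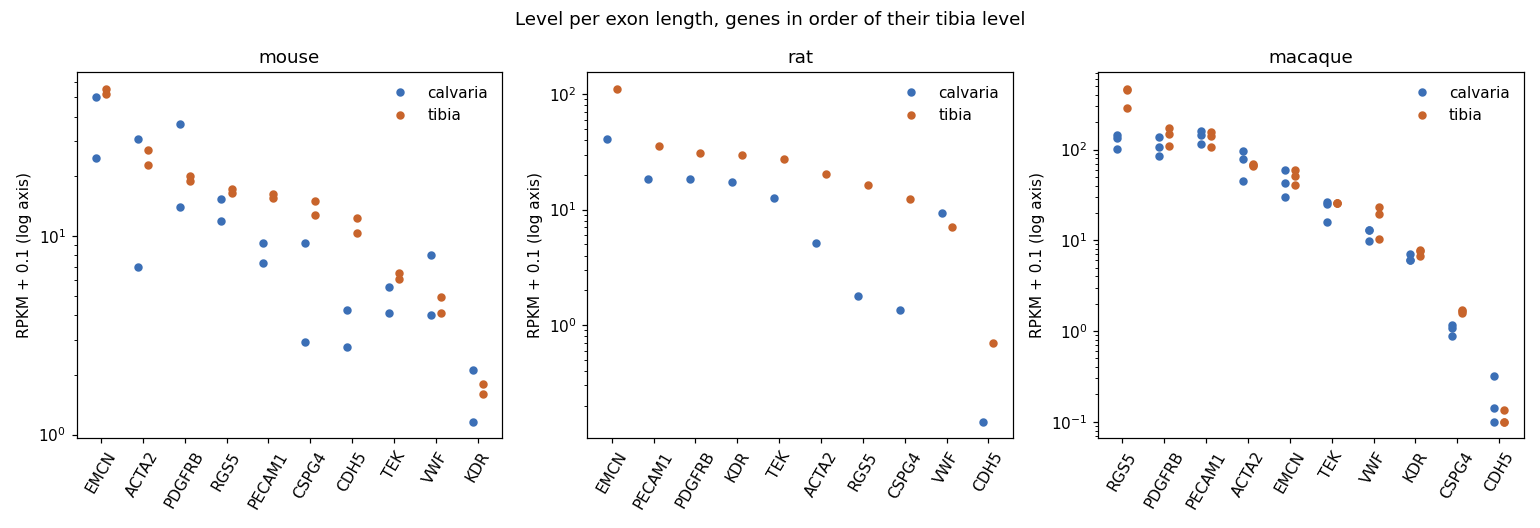
Each panel is a species; the vertical axis is RPKM with 0.1 added, on a log axis, genes are ordered by their mean in tibia, and each point is a library (blue calvaria, orange tibia). RGS5 comes first in macaque with its tibia points between 287 and 470, and EMCN comes first in mouse and rat.

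Set against PECAM1 or PDGFRB in the same library, RGS5 kept its separation in macaque. Ratios to other vascular genes were not taken. There were 0.642 to 0.677 RGS5 reads per PECAM1 read in the macaque calvaria libraries and 1.96 to 2.36 in the tibia libraries. Against PDGFRB the figures were 0.436 to 0.522 and 1.11 to 1.27. Mouse ran the other way against PECAM1, with 0.665 and 0.675 RGS5 reads per PECAM1 read in calvaria and 0.410 and 0.454 in tibia. Against PDGFRB the mouse calvaria libraries (0.0872 in M4, 0.295 in M8) lay on either side of the tibia libraries (0.221 and 0.247). Rat, with 1 library per site, had 0.0233 RGS5 reads per PECAM1 read in calvaria and 0.116 in tibia, and 0.00902 and 0.0512 per PDGFRB read. These ratios do not depend on library scaling, and they use the same reads as the fold changes above.

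Over the 12 libraries, after each species' mean had been subtracted from log2(normalized CPM + 1), the genes that moved most like RGS5 among 7202 compared were OTUD7B (Pearson r = 0.983), PHC1 (0.965), ZEB1 (0.959), TCOF1 (0.958) and MDFIC (0.952). Of the other members, TEK (0.689), CSPG4 (0.663) and EMCN (0.611) came nearest, PDGFRB, a fellow pericyte gene, had r = 0.504, and VWF (0.102) and CDH5 (0.171) were furthest. CDH5 had only 6 reads in macaque calvaria and 1 in macaque tibia, and 1 and 12 in rat, so its r says little. The correlations describe 12 libraries that share their species and site structure, and 6 of them come from macaque.

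7 lists of other vascular genes were followed beside the members, 78 genes of which 67 were tested. Counts for single lists further below stand beside the shares of all tested genes given here, and nothing is read from them. In macaque 22 of the 67 passed the threshold given above (edgeR, p-values adjusted over all tested genes). That is 32.8% against the background of 26.7%, with 14 higher in tibia and 8 higher in calvaria. Their median log2 fold change was -0.20 over the 56 genes above 1 CPM. All macaque genes above 1 CPM had a median of -0.01. In mouse 1 of 67 was called, where 0.304% of all tested genes were, and the median log2 fold change above 1 CPM was -0.39, beside 0.04 over all genes above 1 CPM. In rat 20 of 67 passed a log2 ratio of 2, 19 of them higher in tibia, where 7.16% of all tested genes passed it and 6.39% did so towards tibia; the median was -1.46, beside -0.19 over all genes above 1 CPM.

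Of other mural genes, 1 of 11 tested was higher in macaque calvaria and 1 in tibia, beside 14.1% and 12.6% of all tested genes. KCNJ8, the pore of the ATP-sensitive potassium channel of pericytes, had 17, 11 and 20 reads in macaque calvaria and 83, 52 and 59 in tibia, and rose in tibia (log2 fold change -1.81, standard error 0.418, adjusted p = 0.00973, edgeR). Its sites did not overlap. DES, the intermediate filament desmin that striated muscle also makes, was called higher in calvaria at a mean of 5.48 against 1.83 normalized CPM (adjusted p = 0.134, edgeR), a call lost without G1, G3 or T2, where the adjusted p reached at most 0.454. COX4I2, a respiratory chain subunit common in pericytes, was the single vascular gene called in mouse, with 40 and 37 reads in calvaria against 215 and 265 in tibia (log2 fold change -2.49, standard error 0.349, adjusted p = 0.199, edgeR). It lay barely inside the threshold and its call was lost without M5 or without M7, where the adjusted p reached at most 1.0. In rat 6 mural genes passed a log2 ratio of 2, all higher in tibia, among them VTN (7 reads in calvaria and 100 in tibia) and COX4I2 (128 and 1484 reads).

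Of contractile genes of smooth muscle, 3 of 9 tested were higher in macaque tibia and 1 in calvaria. Those counts stand beside 12.6% and 14.1% of all tested genes. CALD1 (caldesmon), at 1552 ± 145 normalized CPM in calvaria and 2500 ± 417 in tibia (SD, n = 3, adjusted p = 0.0200, edgeR), and MYLK (myosin light chain kinase), at 809 ± 146 and 1296 ± 139.9 (adjusted p = 0.0220, edgeR), were higher in tibia. CNN1 (calponin) was higher in calvaria at 7.93 ± 5.13 against 2.69 ± 1.19 (adjusted p = 0.103, edgeR), a call lost without G1 or G3 with an adjusted p of at most 0.384. In rat 4 of 9 were past a log2 ratio of 2, MYH11 with 101 reads in calvaria and 436 in tibia, and SYNPO2, LMOD1 and CNN1 with 5, 3 and 1 reads in calvaria.

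Among the pan-endothelial genes, 3 of 17 tested were higher in macaque tibia and 1 in calvaria, beside 12.6% and 14.1% of all tested genes. CLEC14A, an endothelial C-type lectin, had 772, 800 and 623 reads in macaque calvaria and 1726, 1528 and 2175 in tibia (log2 fold change -1.09, standard error 0.170, adjusted p = 6.1e-04, edgeR). PTPRB, the endothelial phosphatase that acts on TEK, had 155 ± 16.0 normalized CPM in calvaria and 353 ± 153 in tibia (adjusted p = 0.00849, edgeR), with T2 at 178 close to the calvaria libraries. ICAM2 was higher in calvaria at 6.77 ± 2.59 against 3.40 ± 0.877 normalized CPM (adjusted p = 0.193, edgeR), and that call was lost without G1, G3, G2 or G4, where the adjusted p reached at most 0.477. In rat SOX18, a transcription factor of vessel formation, and NOS3, the endothelial nitric oxide synthase, passed a log2 ratio of 2, with 56 and 328 reads, and 26 and 113 reads, in calvaria and tibia.

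Arterial and Notch pathway genes gave 2 of 7 higher in macaque tibia and 2 in calvaria, beside 12.6% and 14.1% of all tested genes. DLL4, a Notch ligand of arterial and tip cells (14.6 ± 6.09 against 32.5 ± 6.63 normalized CPM, adjusted p = 0.0214, edgeR), and NOTCH4, an endothelial Notch receptor (13.5 ± 0.940 against 24.5 ± 3.81, adjusted p = 0.0429, edgeR), were higher in tibia, and NOTCH4 was not called without G2 (adjusted p = 0.217). BMX, a tyrosine kinase of arterial endothelium, was higher in calvaria (71.9 ± 5.40 against 41.9 ± 5.23, adjusted p = 0.0146, edgeR). So was SOX17, an arterial transcription factor (86.8 ± 7.17 against 64.3 ± 2.02, adjusted p = 0.127, edgeR), which was not called without G1, T1, G2 or G4, where the adjusted p reached at most 0.316. In rat 5 of the 7 passed a log2 ratio of 2, all higher in tibia, with DLL4 at 35 and 167 reads, NOTCH4 at 74 and 299, and SOX17 at 19 and 110.

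Of 8 sinusoidal, venous and lymphatic genes, 2 were higher in macaque tibia and 1 in calvaria, beside 12.6% and 14.1% of all tested genes. NR2F2, the transcription factor of venous identity, had 352 ± 23.6 normalized CPM in macaque calvaria and 581 ± 94.2 in tibia (adjusted p = 0.0100, edgeR). STAB2, a scavenger receptor of sinusoids, had 57, 32 and 54 reads in calvaria and 23, 20 and 10 in tibia (log2 fold change 1.60, adjusted p = 0.0359, edgeR). LYVE1, a hyaluronan receptor of lymphatics and some macrophages, was called higher in tibia at 5.49 ± 2.97 against 2.26 ± 1.14 normalized CPM (adjusted p = 0.192, edgeR), which was lost without G1, G3, T1, G2 or T2 with an adjusted p of at most 0.544. PDPN, carried by lymphatics and also by young osteocytes, had 130 reads in rat calvaria and 1554 in rat tibia.

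For ligands of these vessels, 3 of 10 tested were higher in macaque tibia and none in calvaria, beside 12.6% and 14.1% of all tested genes. PDGFD, a ligand of PDGFRB, had 358, 313 and 315 reads in macaque calvaria and 837, 753 and 824 in tibia (log2 fold change -1.09, standard error 0.170, adjusted p = 5.9e-04, edgeR). EDN1, the vasoconstrictor endothelin, was called higher in tibia at 77.6 ± 50.7 against 38.3 ± 12.8 normalized CPM (adjusted p = 0.152, edgeR). Its sites overlapped, with the tibia library T2 at 20.9, below every calvaria library (23.7 to 47.7). The EDN1 call was lost without G3, T1, G2 or G4, with an adjusted p (edgeR) of at most 0.441. In rat PGF, a relative of VEGF, had 32 reads in calvaria and 142 in tibia, and PDGFB, the endothelial ligand of PDGFRB, had 4 reads in calvaria and 0 in tibia.

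Of the relatives of RGS5 in the R4 family of RGS proteins, 2 of 6 tested were called in macaque, both higher in calvaria. That stands beside 14.1% of all tested genes, and 2 of the 6 relatives had a lower value in calvaria. The difference of these relatives from RGS5 was not tested. RGS18, which is found in megakaryocytes and platelets, had 713, 936 and 792 reads in macaque calvaria and 191, 237 and 423 in tibia (log2 fold change 1.75, standard error 0.235, adjusted p = 1.9e-04, edgeR). RGS2, a regulator of vascular tone that leukocytes also express, was at 224 ± 24.2 normalized CPM in calvaria and 139.7 ± 36.3 in tibia (adjusted p = 0.0291, edgeR). Platelet and megakaryocyte markers moved with RGS18, with 6 of 8 tested markers called higher in macaque calvaria, and their part in it was not tested. In mouse and rat, 0 of these 6 relatives passed the thresholds.

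**Figure D4:**
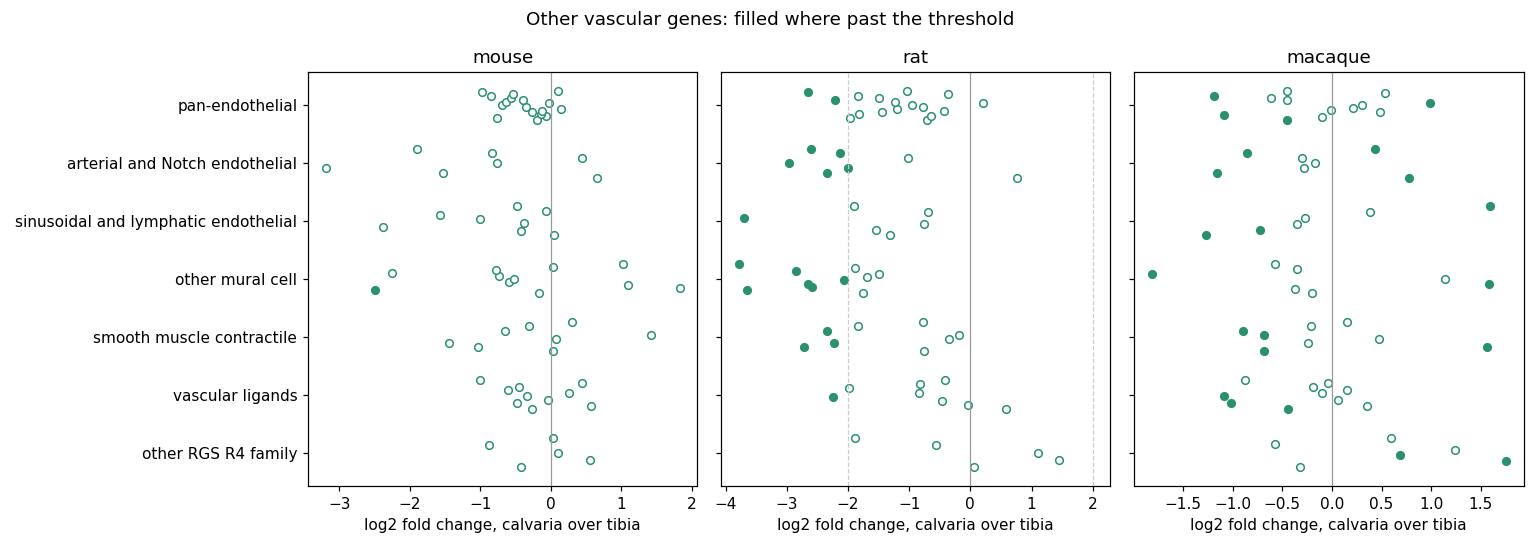
Each row is a list of vascular genes other than the members and each point a gene above 1 CPM, at its log2 fold change of calvaria over tibia in mouse, rat and macaque; filled points passed the threshold of that species, and dashed lines mark the rat threshold of 2. Filled points sit on both sides of 0 in macaque and on the left in rat, where all drawn points past 2 are higher in tibia; PDGFB and CNN1 of rat, under 1 CPM, are not drawn.

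Several genes that define endothelial or mural cells had almost no reads in macaque while others were abundant. Over all 6 macaque libraries CDH5 had 7 reads, EGFL7 3, ECSCR 1, FLT4 1, HIGD1B 3, NDUFA4L2 3, TAGLN 6 and VTN 1. The macaque rows for PECAM1, PDGFRB, CLEC14A and RGS5 held between 623 and 6525 reads in each of the same libraries. The reason for the difference was not tested.

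Markers of other cells differed between the sites beside the vascular genes. In macaque, summed neutrophil markers were 55585 to 90853 normalized CPM in calvaria and 10746 to 21393 in tibia, with 6 of 7 called, and erythroid markers 1517 to 1877 and 299 to 460.0, with 4 of 4 called. The sum of osteocyte markers ran the other way, at 7516 to 8636 in macaque calvaria and 11666 to 26550 in tibia. Most of that sum was MEPE, at a mean of 7682 in calvaria and 20286 in tibia. Of the 4 osteocyte markers tested, 3 were lower in macaque calvaria, and 2 were called, MEPE and SOST. In mouse, neutrophil markers were at 135689 to 179478 in calvaria and 83016 to 94405 in tibia, platelet and megakaryocyte markers at 1901 to 2622 and 1441 to 1912, leukocyte markers at 840 to 869 and 643 to 716, and chondrocyte markers at 15.2 to 86.5 and 700.3 to 872. The mouse calvaria libraries, which disagreed on PDGFRB, ACTA2 and CSPG4, also disagreed on several of these lists. M4 was higher than M8 for fibroblast and periosteum markers (1957 and 484, against 770 to 805 in tibia) and skeletal muscle markers (4055 and 2166, against 544 to 2721 in tibia). M4 was higher as well for osteoblast (36894 and 16297), osteocyte (2661 and 1489) and chondrocyte markers (86.5 and 15.2). M8 was higher for erythroid (1121 in M4 and 3279 in M8), neutrophil (135689 and 179478) and platelet and megakaryocyte markers (1901 and 2622). Osteocyte markers in rat were at 807 CPM in calvaria and 10966 in tibia, and skeletal muscle markers at 13.6 and 1489. Of all rat genes above 1 CPM, 63.4% were lower in calvaria. In macaque the sums of skeletal muscle markers (59.0 to 84.6 against 73.7 to 121), adipocyte markers (92.3 to 113 against 82.5 to 118) and osteoblast markers (36873 to 65946 against 25536 to 90326) overlapped between the sites. Fibroblast and periosteum markers were lower in calvaria (610 to 881 against 1145 to 1232), and chondrocyte markers were scarce (7.83 to 14.7 against 0.346 to 6.86). Single markers of these lists were called all the same, where 26.7% of all tested genes were. Higher in calvaria were 2 of 4 adipocyte and 1 of 2 chondrocyte markers. Higher in tibia were 2 of 6 osteoblast, 1 of 7 skeletal muscle and 3 of 5 fibroblast and periosteum markers. The part of these cells in the values of the vascular genes was not tested.

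Whether a site difference differed between mouse and macaque was tested for the vascular genes outside the members by the interaction of species and site in edgeR, which called 5 of the 67, against 5.0% of all tested genes. Values are macaque minus mouse on the log2 scale. GJA4, an arterial connexin, had 4 and 11 reads in mouse calvaria (M4, M8) against 86 and 74 in tibia (M5, M7), and 437, 471 and 384 in macaque calvaria against 606, 496 and 722 in tibia (interaction 2.93, standard error 0.463, adjusted p = 0.0236). SOX17 had 31 and 14 reads in mouse calvaria and 85 and 98 in tibia (interaction 2.33, standard error 0.377, adjusted p = 0.0237). STAB2 had 230 and 238 reads in mouse calvaria and 389 and 347 in tibia (interaction 2.09, standard error 0.579, adjusted p = 0.144). For SMTN, the smooth muscle protein smoothelin, with 263 and 93 reads in mouse calvaria and 80 and 65 in tibia, the interaction was -2.29 (standard error 0.741, adjusted p = 0.194), and for CLEC14A it was -1.00 (standard error 0.288, adjusted p = 0.158). None of the 5 was called between the sites in mouse. Species and its genome annotation cannot be told apart in this comparison.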

How the data were processed

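The 12 libraries (4 mouse, 2 rat, 6 macaque) came as deposited tables of counts per gene. According to the methods, the authors merged the exons of each gene, mapped reads with HISAT2 to mm10, rn6 and the MacaM macaque assembly, and counted them with HTSeq without regard to strand; the submitters' processing notes name BWA 0.7.10-r789 as the aligner, and which was used could not be settled. Reads of overlapping antisense genes therefore cannot be told apart. A scaled signal column of normalized CPM that the authors deposited was not used here. Rows that name no gene held 0.00261% to 0.0663% of reads and were left out.

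Counts were joined by upper-case gene symbol. Of 29600 macaque rows 17111 were named LOC, and 5939 of these were given a symbol through RefSeq. Of 13982 symbols present in all 3 species, the 10536 with a read in each species were tested. Mouse and macaque were each fitted with edgeR 4.0.16 in R 4.3.3 (quasi-likelihood test, TMM factors, Benjamini-Hochberg adjustment over all tested genes; calls needed a fold above 1.1 and a false discovery rate below 0.2, as in the methods). Rat has 1 library per site, so only log2 ratios of CPM with 1 read added are given, and no test. DESeq2 1.42.0 served as an alternative. The scripts were tested on simulated counts. The methods state skull and tibia pairs, but the labels do not say which libraries share an animal or pool; p-values measure the spread between these libraries. Mouse coordinates are those of the GENCODE annotation of GRCm38.

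The members and the gene lists were chosen with earlier results of these data known. Named are the 10 members, the 5 genes most like RGS5, and, from each vascular list, up to 2 called genes in each direction with the smallest p in mouse and in macaque; rat genes past the threshold, GJA4, SMTN and genes near 0 reads, were named after their values were seen. For the 10 marker lists of other cells sums and counts are given, and in macaque the genes behind the osteocyte and adipocyte sums. Alternatives were other scalings, gene filters, DESeq2, a stricter false discovery rate, a block for assumed pairs, the library letter as a batch, other added reads in rat, and leaving out each library.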

Additional observations from a re-analysis of the deposited data

Results flagged for a closer look

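The interaction of species and site passed the threshold for 5 of the 67 vascular genes tested outside the members, against 5.0% of all tested genes (edgeR, adjusted over all tested genes). The adjusted p (edgeR) was 0.0236 for GJA4 and 0.0237 for SOX17, but 0.144 for STAB2, 0.158 for CLEC14A and 0.194 for SMTN. This test was not repeated with a library left out, and species and its genome annotation cannot be told apart in it. The interaction values, macaque minus mouse on the log2 scale, were 2.93 for GJA4, 2.33 for SOX17, 2.09 for STAB2, -1.00 for CLEC14A and -2.29 for SMTN. The mouse log2 fold changes of calvaria over tibia were -3.19 for GJA4, -1.89 for SOX17, -0.48 for STAB2, -0.07 for CLEC14A and 1.42 for SMTN, and none of the 5 was called in mouse. The macaque values were -0.28 for GJA4, 0.43 for SOX17, 1.60 for STAB2, -1.09 for CLEC14A and -0.89 for SMTN, of which all but GJA4 were called; the SOX17 call was lost without G1, T1, G2 or G4 (adjusted p at most 0.316) and the SMTN call without G1, G3, T1, G2 or G4 (at most 0.560).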

How the results depend on the processing

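The number of genes called in mouse rested on the settings. It was 32 as reported, 15 with genes read in every library, 510 over all symbols of the species, 282 with DESeq2, 2 at a false discovery rate under 0.05 and 63 with a replicate block for assumed pairs. It ran from 9 to 5016 with 1 library left out; it was 5016 without M4 and 2620 without M8, where the lone calvaria library is assumed to vary like the tibia libraries. Members called in mouse were 0 as reported, 2 over all symbols and 2 with DESeq2 (CDH5 and PECAM1 in both), 1 with the replicate block (CDH5), and 0 to 8 with 1 library left out; at an unadjusted p under 0.05, edgeR gave 788 genes in mouse.

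In macaque, 2812 calls became 1325 at a false discovery rate under 0.05 and 1730 to 3609 with 1 library left out (lowest without G2). The replicate block gave 3573 and the library letter as a batch 3592. Members called were 3 as reported, 1 at 0.05 (RGS5), 4 with the replicate block (PDGFRB added) and 1 to 3 with 1 library left out. In rat, 754 genes past the threshold became 403 with 5 reads added, and then 2 members remained past it, RGS5 and CSPG4. Scaling by library size alone split the macaque calls into 1201 higher in calvaria and 1759 in tibia, where TMM gave 1481 and 1331. The pairs are assumed from label order, since the labels name none. Macaque CDH5, at 7 reads, allows no statement at this depth. The cause of these changes was not tested.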
